A study of Canis lupus familiaris with 29 samples.

Results

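The genes described here are transporters of the solute carrier (SLC) superfamily that move organic solutes and nucleotide sugars. They were chosen by symbol: families SLC5, SLC10, SLC13, SLC15, SLC17, SLC19, SLC22, SLC23, SLC27, SLC28, SLC29, SLC35, SLC37, SLC44, SLC45, SLC46 and SLC47 with the letter A, and the organic anion transporters SLCO. The choice went by symbol and used no measured value, but was made with earlier results of these data known. It gave 95 of the 15115 genes that the array annotation names singly. Each gene was read through 1 probe set, that with the highest mean over all arrays. The symbol rule takes subfamily A of SLC35 alone, so 18 genes of its subfamilies B to G are given beside the members as companions.

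Messenger RNA was measured on 29 Affymetrix canine arrays in MDCK type II cells, an established line of dog kidney tubule epithelium, as flat cultures (2D) or in collagen gels (3D). Each culture had 3 arrays of cells given hepatocyte growth factor (HGF) with U0126, 3 (3D) or 4 (2D) with HGF and PD-98059, 4 with HGF alone and 4 of untreated control. HGF is the ligand of the receptor MET, and U0126 and PD-98059 each block MEK, which phosphorylates ERK downstream of that receptor. Every array with an inhibitor also had HGF, and all arrays come from the same line, so they show the spread between cultures of MDCK cells and not between dogs. The sources used here give neither doses nor times, and no label says whether replicates are separate cultures. The spread behind each p-value is thus that of these arrays and may be technical in part.

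In the kidney tubule, the plasma-membrane families SLC5, SLC13, SLC22, SLC47 and SLCO carry sugars, vitamins, osmolytes, carboxylates, organic cations and organic anions between urine, cell and blood. Many SLC35 proteins work inside the cell, in the Golgi and endoplasmic reticulum. There they bring in the activated sugars that glycosyltransferases attach to proteins and lipids. Some companions named below carry other cargo. The other families include carriers of choline, folate, ascorbate, nucleosides, fatty acids, lysosomal solutes and sugar phosphates. The roles given below are those known from human and rodent proteins.

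Array facts that touch these results are few. Of 8 epithelial and kidney markers on the array, 5 reached log2 5 and did so in all 8 groups. Of the markers of other cells, 0 of 7 stromal and 0 of 4 endothelial ones did, and 1 of 5 leukocyte markers, CD68, reached that level in 2D HGF alone (summed level of the 5 from 16.2 to 18.3, against 14.1 to 14.4 in 2D control). CD68 is also a general lysosomal protein, and its part in the results was not tested. The gap in level between 3′ control probe sets and their 5′ or middle partners, used as an index of RNA quality, averaged 1.68 ± 0.583 in 3D HGF and 1.93 ± 0.238 in 3D control, and 0.838 ± 0.0476 in 2D HGF and 1.44 ± 0.1004 in 2D control (SD, n = 4 each). It was thus lower with HGF in 2D, and higher again there with PD-98059 (1.36 ± 0.0609, n = 4) and U0126 (1.31 ± 0.134, n = 3). It was also higher in 3D control than in 2D control. Its part in these comparisons was not tested except by the fit that holds it as a covariate. In 2D the HGF arrays (0.798 to 0.902) did not overlap the control arrays (1.30 to 1.53) in this index. They also lay below the PD-98059 (1.28 to 1.41) and U0126 (1.23 to 1.47) arrays. Index and HGF thus cannot be told apart in 2D, and the covariate fit cannot separate them there. Arrays of 3D HGF were the least alike, with a lowest correlation of 0.964 between 2 of them, against 0.987 or more elsewhere. Without replicates 1 and 4 of that group the members called were 17 in place of 18 for HGF in 3D, 15 in place of 19 for U0126 in 3D, 18 as before for PD-98059 in 3D, and 14 in place of 17 for the difference of the HGF effects between cultures.

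Most of these genes were under log2 5, the level of the filter used here, on all arrays. A probe set was tested where it reached log2 5 in at least 3 arrays, and 30 of the 95 members did. Of the other 65, 63 reached it in 0 arrays and 2 in 1 array: the peptide transporter SLC15A2, with a highest array of 5.29, and the dicarboxylate transporter SLC13A3, with 5.06. The 30 were selected for their level, so counts over them do not speak for all 95. Among the plasma-membrane kidney families 10 of 44 were tested: 3 of 11 SLC5, 5 of 17 SLC22, 2 of 9 SLCO, 0 of 5 SLC13 and 0 of 2 SLC47 genes. SLC47A1, the apical exporter of organic cations known as MATE1, was never above 2.14.

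Of the 4 SLC35A genes, SLC35A1, SLC35A3 and SLC35A5 were tested. SLC35A2, the transporter of UDP-galactose, was not above 3.02 on any array. In the other families 17 of 47 were tested, among them 4 of 4 SLC37 (sugar phosphate exchange), 3 of 5 SLC44 (choline-like), 2 of 3 SLC23 (ascorbate) and 2 of 6 SLC27 (fatty acid) genes. The SLC10, SLC15, SLC17, SLC19, SLC29 and SLC46 families had 1 tested gene each, and the nucleoside family SLC28 and the family SLC45 had 0. A low level on a probe set is a measurement of that probe set, and levels of different genes cannot be ranked on this platform.

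**Figure D1:**
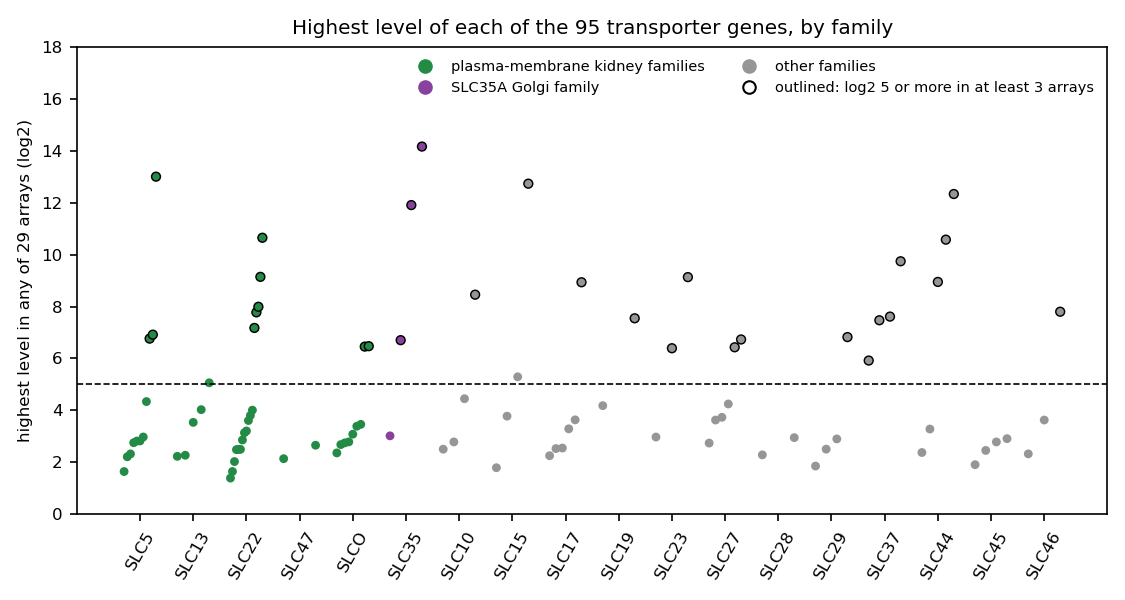
Highest log2 level over the 29 arrays (y axis) for each of the 95 genes, by family (x axis), coloured by class; outlined points are the 30 tested genes and the dashed line marks log2 5. Most members of the plasma-membrane kidney families (44 genes, 10 tested) lie under the line, and 3 of the 4 SLC35A genes lie above it.

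In 6 tested genes 14 or more arrays had nearly the same level. SLC5A2, the glucose transporter SGLT2, lay between 6.40 and 6.76 on all 29 arrays, with 22 of them within 0.1 of each other. For the sugar phosphate exchanger SLC37A2 19 arrays lay within such a window, which starts at 6.56, for the thyroid hormone transporter SLCO4A1 17, from 5.76, and for the fatty acid transporter SLC27A4 16, from 6.18. Over all tested probe sets the median was 7 arrays, and 6.82% had 15 or more in a window of this width. SLC22A2 had 14 arrays between 6.09 and 6.19, and the sugar phosphate gene SLC37A1 14 between 5.10 and 5.20. Of these genes SLC22A2 alone has its shared value at its lowest array, 6.09. For SLC37A1, SLC37A2, SLCO4A1 and SLC27A4 other arrays lay lower, down to 4.03, 6.08, 5.28 and 5.71. Whether 6.09 is the lowest level that the SLC22A2 probe set can give was not tested, and a difference that ends there may be larger than its number. SLC5A2 and SLC37A2 passed in 0 of the 10 comparisons.

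What HGF changed among these transporters in collagen was asked with 4 HGF and 4 control arrays, and in flat cultures with 4 of each. A gene rose or fell where limma's moderated test gave an adjusted p under 0.05 over all 16571 tested probe sets. In 3D 4 of 30 members rose and 14 fell, so 60% were called, against 62.1% of all tested probe sets in either direction. The members that rose are set against a background of 29.4% and those that fell against 32.6%. After quantile normalization the split was 7 and 11, and after median centring 5 and 11. With no filter on low values it was 12 and 14 of 95 members, so the excess of falls over rises holds for the 30 tested genes and not for all 95. That centring moved the median of all genes by 0.10. In 2D 7 rose and 12 fell, 63.3% of members, against 55.4% of all probe sets (26.3% higher, 29.2% lower). Shares of this size are near the background and are no result about transporters as a group.

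By class the counts in 3D were 1 risen and 4 fallen of 10 plasma-membrane kidney genes, 0 and 1 of 3 SLC35A genes and 3 and 9 of 17 others. In 2D they were 3 and 4, 1 and 2, and 3 and 6. At least 2-fold changes were called for 2 risen and 6 fallen members in 3D (24% of all probe sets in either direction) and for 1 and 6 in 2D (19.4%). The median change over the 30 members was -0.34 in 3D and -0.19 in 2D, against -0.0025 and -0.027 over all tested probe sets. Of the called members 14 of 18 in 3D and 15 of 19 in 2D passed in the same direction under every alternative and with each array left out. The others were SLC17A5, SLC27A5, SLC29A1 and SLC5A6 in 3D and SLC22A18, SLC23A1, SLC37A1 and SLCO4A1 in 2D.

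**Figure D2:**
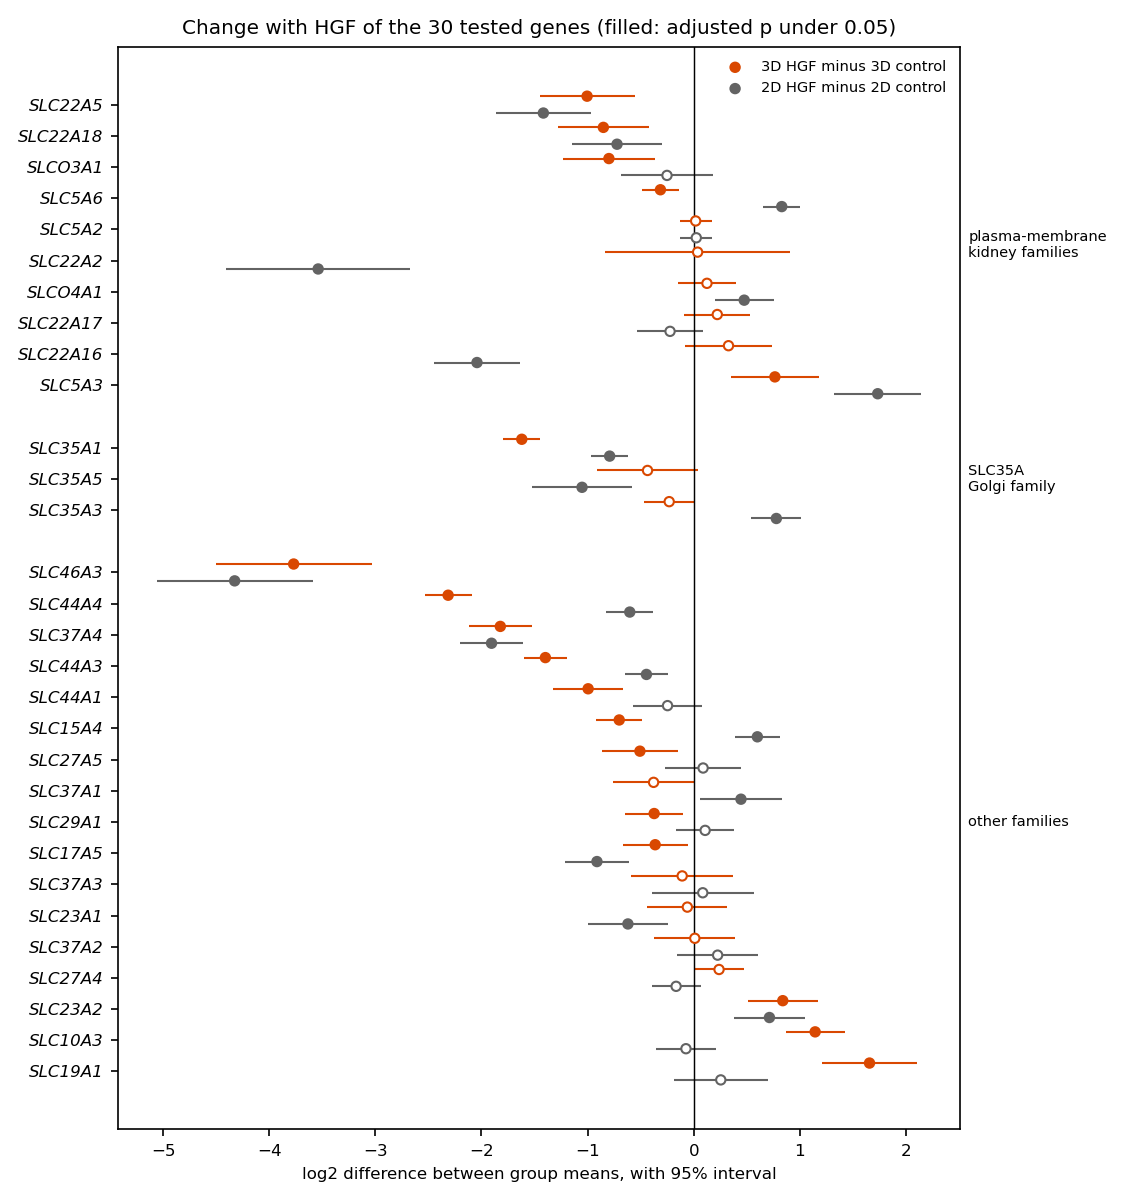
Log2 difference between HGF and control group means with its 95% interval (x axis) for each of the 30 tested genes (y axis, by class), in 3D and in 2D (n = 4 arrays a group); filled points passed at an adjusted p under 0.05. SLC46A3 lies far to the left in both cultures, SLC22A2 and SLC22A16 only in 2D, and SLC5A6, SLC35A3 and SLC15A4 to opposite sides in the 2 cultures.

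Of the organic cation and carnitine transporters of family SLC22, 0 rose and 2 of 5 fell in 3D, and 0 rose and 4 fell in 2D. Of all tested probe sets 29.4% were higher and 32.6% lower in 3D, and 26.3% and 29.2% in 2D. These 5 genes are too few to set a family apart. SLC22A2 is OCT2, the basolateral uptake transporter of organic cations in the proximal tubule. Its log2 levels in 2D were 6.09, 6.18, 6.63 and 6.11 with HGF, against 10.65, 10.31, 7.88 and 10.33 in control. All 4 HGF arrays lay below all 4 control arrays, and control replicate 3 lay apart from the other 3. The 3D arrays held 6.44, 6.11, 6.09 and 6.24 with HGF, against 6.14, 6.37, 6.13 and 6.10 in control, so that all 8 sat at or near the low value described above. SLC22A2 fell 11.6-fold with HGF in 2D (-3.54 ± 0.42, limma adjusted p = 7.58e-08), and gave 0.037 ± 0.42 in 3D (95% interval -0.83 to 0.91). Each standard error rests on a spread pooled over all 8 groups, so the 3D interval also carries the wider spread of the 2D arrays. Under the alternatives the limma adjusted p of the 2D fall was at most 0.000283. The other tested probe set of SLC22A2 fell by 4.41 in 2D. Whole cultures were measured, so fewer cells with a transcript and less of it per cell cannot be told apart, here and below.

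SLC22A16, a carnitine transporter in humans, had levels of 5.27, 5.42, 5.49 and 5.13 with HGF in 2D, against 7.37, 7.38, 7.26 and 7.46 in control. The groups are far apart and each is tight. The gene fell by 2.04 ± 0.20 (4.12-fold) in 2D and gave 0.33 ± 0.20 in 3D (adjusted p = 0.155). Its other tested probe set, dim with a mean of 4.34, gave 0.13 ± 0.17 in 2D, and with the mean of both probe sets the fall was 0.96. A mean under log2 5 is called dim throughout, and a value there rests on background signal.

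SLC22A5, the carnitine transporter OCTN2, fell in both cultures. Its 3D levels were 6.49, 6.42, 5.88 and 5.81 with HGF, against 7.16, 7.04, 6.64 and 7.77 in control, with no overlap. In 2D they were 5.24, 5.24, 5.06 and 5.03 with HGF, against 6.41, 6.83, 6.42 and 6.57 in control, again with no overlap and with a tighter HGF group. The changes were -1.005 ± 0.22 and -1.42 ± 0.22. The orphan carrier SLC22A18 fell by 0.85 ± 0.21 in 3D and by 0.72 ± 0.21 in 2D, where it did not pass with the RNA-quality index as covariate (-0.19, adjusted p = 0.414), and its other tested probe set passed in neither culture (-0.13 and -0.12). SLC22A17, a receptor for the iron carrier lipocalin 2, did not pass (0.22 ± 0.15 and -0.22 ± 0.15).

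In family SLC5 the osmolyte transporter SLC5A3, which takes up myo-inositol with sodium, rose in both cultures. Its levels in 3D were 6.20, 5.48, 5.66 and 5.54 with HGF, against 4.99, 4.96, 4.97 and 4.91 in control. In 2D they were 5.58, 6.92, 6.62 and 6.51 with HGF, against 4.77, 4.35, 4.68 and 4.88 in control. All HGF arrays lay above all control arrays, which were dim in both cultures, and the rises were 0.77 ± 0.20 and 1.73 ± 0.20 (3.33-fold). Of the arrays compared here only those with HGF reached log2 5, the level of the filter, so the size of the rises is uncertain. NFAT5, the transcription factor that controls osmolyte carriers, did not pass (-0.71 and -0.41).

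SLC5A6 carries biotin, pantothenate and lipoate. It had 12.07, 12.07, 12.17 and 12.26 in 3D with HGF, against 12.37, 12.46, 12.42 and 12.57 in 3D control, and 12.99, 13.003, 12.82 and 12.81 in 2D with HGF, against 12.16, 12.13, 11.86 and 12.16 in 2D control. The HGF arrays were thus below control in 3D and above it in 2D, without overlap. It fell by 0.31 ± 0.08 in 3D and rose by 0.83 ± 0.08 in 2D. The mean of its 3 tested probe sets gave -0.09 in 3D (adjusted p = 0.447), so the fall in 3D rests on the probe set chosen.

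Of the 2 organic anion transporters, SLCO3A1, which takes prostaglandins, fell by 0.80 ± 0.21 in 3D and gave -0.25 ± 0.21 in 2D, where it was dim in both groups. SLCO4A1 gave 0.12 ± 0.13 in 3D and rose by 0.48 ± 0.13 in 2D. The 2D rise did not pass with the RNA-quality index as covariate (0.24, adjusted p = 0.173).

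The nucleotide-sugar transporters of the Golgi moved differently from each other. SLC35A1 brings in CMP-sialic acid, the donor for sialylation. Its levels in 3D were 12.10, 12.21, 12.31 and 11.96 with HGF, against 13.68, 13.81, 13.86 and 13.70 in control. In 2D they were 13.01, 13.04, 13.01 and 12.90 with HGF, against 13.90, 13.81, 13.72 and 13.70 in control. The groups stand clear of each other in both cultures, and the lowest 4 arrays of the 16 are those of 3D HGF. SLC35A1 fell by 1.62 ± 0.08 (3.07-fold, adjusted p = 8.03e-15) in 3D and by 0.79 ± 0.08 (1.73-fold) in 2D, and its other tested probe set fell by 1.42 and 0.83.

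SLC35A3, the transporter of UDP-N-acetylglucosamine, had 10.24, 9.99, 10.01 and 9.67 in 3D with HGF, against 10.25, 10.18, 10.28 and 10.13 in 3D control, and these overlapped. In 2D it had 11.91, 11.34, 11.57 and 11.69 with HGF, against 11.01, 10.78, 10.75 and 10.84 in control, with all HGF arrays higher. It rose by 0.78 ± 0.11 in 2D and gave -0.23 ± 0.11 in 3D (adjusted p = 0.0839). SLC35A5 fell by 1.05 ± 0.23 in 2D to a dim 4.65, against 5.70 in control, and gave -0.44 ± 0.23 in 3D. The fall in 2D was 1.59 with the RNA-quality index as covariate, and the other tested probe set of SLC35A5 did not pass (-0.44).

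Of the 18 companion genes of SLC35 B to G, 7 were tested, of which 2 rose and 1 fell in 3D (42.9% called, against 62.1% of all probe sets), and 3 rose and 1 fell in 2D (57.1%, against 55.4%). SLC35B1, an exchanger of ATP and ADP in the endoplasmic reticulum, rose by 1.76 in 3D and 0.44 in 2D. SLC35G2 gave -0.21 in 3D and rose by 1.097 in 2D. The 1 companion that fell in 3D, the transporter SLC35B3 of the sulfate donor PAPS, had 2.81, 5.68, 7.20 and 7.22 with HGF, against 6.82, 7.61, 7.04 and 7.68 in control. Replicate 1 of 3D HGF lay far below the rest and replicates 3 and 4 lay among the control arrays, so its difference of -1.56 (adjusted p = 0.0232) leans on 1 array and is not read as a fall. It gave -0.07 in 2D. The PAPS transporter SLC35B2 and the GDP-fucose transporter SLC35C1 were not tested, with highest arrays of 4.95 and 2.87.

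The enzymes that make the cargo of these transporters were counted from a list of 27 genes of nucleotide-sugar and PAPS synthesis, of which 23 were on the array and 18 were tested. With HGF 8 rose and 6 fell in 3D (29.4% of all probe sets higher and 32.6% lower), and 13 rose and 3 fell in 2D (26.3% higher and 29.2% lower), with medians of 0.06 and 0.47. At least 2-fold changes were called for 3 risen and 1 fallen enzyme genes in 3D (24% of all probe sets in either direction). In 2D they were called for 2 and 0 (19.4%). The genes named next do not include the 1 that fell at least 2-fold, so they do not stand for the list. GFPT1, the first enzyme of the hexosamine pathway, rose by 1.46 in 3D and 1.82 in 2D, and UXS1, which makes UDP-xylose, by 2.25 and 0.40. NANS, which makes the sialic acid precursor, rose by 1.16 and 0.42. CMAS, which makes the CMP-sialic acid that SLC35A1 carries, fell by 0.23 in 3D and rose by 0.89 in 2D.

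The largest changes with HGF were in SLC46A3, a lysosomal solute exporter. Its levels in 3D were 2.37, 2.37, 2.72 and 2.81 with HGF, against 5.83, 6.81, 6.13 and 6.58 in control. In 2D they were 2.37, 4.05, 3.25 and 3.11 with HGF, against 7.29, 7.61, 7.39 and 7.80 in control. Every HGF array was dim and every control array was above log2 5. The falls were 13.6-fold in 3D (-3.77 ± 0.36, adjusted p = 1.04e-09) and 20.1-fold in 2D (-4.33 ± 0.36, adjusted p = 1.003e-10). As they end at a dim level, their size is uncertain.

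The other lysosomal members changed less. SLC17A5, which is sialin, the exporter of free sialic acid, fell by 0.91 ± 0.15 in 2D and by 0.36 ± 0.15 in 3D. The 3D fall missed the threshold when any of control replicates 2, 3 or 4 or HGF replicate 2 was left out (-0.28, -0.33, -0.34 and -0.22, adjusted p from 0.0746 to 0.189) and in 4 other alternatives, although the other tested probe set fell by 0.35. SLC15A4 exports histidine and peptides from lysosomes. It had 11.11, 11.58, 11.57 and 11.26 in 3D with HGF, against 12.04, 11.94, 12.22 and 12.13 in 3D control, and 12.73, 12.72, 12.64 and 12.45 in 2D with HGF, against 12.16, 12.01, 11.98 and 11.99 in 2D control. All HGF arrays lay below control in 3D and above it in 2D, so that it fell by 0.70 ± 0.10 in 3D and rose by 0.60 ± 0.10 in 2D. A second probe set of SLC15A4 rose by 0.86 in 2D and gave -0.39 in 3D (adjusted p = 0.187).

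Choline transporter-like genes of family SLC44 fell in 3 of 3 cases in 3D (32.6% of all probe sets were lower) and in 2 of 3 in 2D (29.2%), too few genes to set a family apart. SLC44A4, a thiamine pyrophosphate and choline carrier of epithelia, had 8.84, 9.05, 8.83 and 8.93 in 3D with HGF, against 11.30, 11.13, 11.14 and 11.33 in 3D control. Its 2D arrays held 11.56, 11.31, 11.51 and 11.60 with HGF, against 12.12, 12.10, 11.84 and 12.34 in control. No HGF array reached a control array of its culture, and the gap in 3D was the wider. SLC44A4 fell by 2.31 ± 0.11 (4.97-fold, adjusted p = 1.12e-15) in 3D and by 0.60 ± 0.11 (1.52-fold) in 2D. SLC44A3 fell by 1.40 ± 0.10 in 3D and 0.45 ± 0.10 in 2D. SLC44A1, the widely expressed choline carrier, fell by 0.995 ± 0.16 in 3D, with replicate 1 of 3D HGF the lowest at 6.44, and gave -0.25 ± 0.16 in 2D.

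SLC37A4 carries glucose-6-phosphate into the endoplasmic reticulum for the last step of glucose production. It had 6.04, 6.15, 6.43 and 5.84 in 3D with HGF, against 8.09, 7.80, 7.96 and 7.90 in 3D control, and 7.82, 7.54, 7.59 and 7.47 in 2D with HGF, against 9.62, 9.37, 9.31 and 9.74 in 2D control. HGF and control did not overlap in either culture, and the 2D HGF arrays lay close to those of 3D control. The falls were 1.82 ± 0.14 (3.54-fold) and 1.91 ± 0.14 (3.75-fold), and its other tested probe set fell by 0.61 in 3D and by 2.32 in 2D. Of the other SLC37 genes, SLC37A3 passed in neither culture. SLC37A1 gave -0.38 ± 0.19 in 3D and 0.45 ± 0.19 in 2D, where it passed at an adjusted p of 0.0464 and did not pass in 9 of 17 alternatives.

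Among the vitamin carriers, the folate carrier SLC19A1 had 6.90, 7.55, 6.79 and 6.88 in 3D with HGF, against 5.22, 5.30, 5.47 and 5.502 in 3D control. In 2D it had 6.58, 5.48, 6.62 and 6.52 with HGF, against 6.10, 6.31, 5.72 and 6.05 in control, and HGF replicate 2 lay below every control array. It rose by 1.66 ± 0.22 (3.15-fold) in 3D and gave 0.26 ± 0.22 in 2D (adjusted p = 0.338), which became 0.53 and passed (adjusted p = 0.0197) without that replicate. The ascorbate transporter SLC23A2 rose in both cultures. It had 8.41, 9.13, 8.98 and 8.75 in 3D with HGF, against 8.13, 7.82, 8.21 and 7.75 in 3D control, and 7.75, 8.03, 7.91 and 8.10 in 2D with HGF, against 7.003, 7.23, 7.25 and 7.44 in 2D control. HGF arrays were above control in each culture, by 0.84 ± 0.16 and 0.71 ± 0.16. SLC23A1, the other ascorbate transporter, gave -0.06 ± 0.18 in 3D and fell by 0.62 ± 0.18 in 2D, with dim means of 4.31 with HGF and 4.93 in control, and did not pass with the RNA-quality index as covariate (adjusted p = 0.0561).

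SLC10A3, a relative of the bile acid transporters, had 8.46, 8.25, 8.44 and 7.99 in 3D with HGF, against 7.45, 7.09, 7.14 and 6.88 in 3D control. The groups did not overlap, and it rose by 1.14 ± 0.14 (2.21-fold) in 3D and gave -0.07 ± 0.14 in 2D. SLC29A1, the nucleoside transporter ENT1, fell by 0.37 ± 0.13 in 3D and gave 0.11 ± 0.13 in 2D. Its 3D fall did not pass after quantile normalization (-0.20), median centring (-0.27), with array weights (-0.29) or without replicates 1 and 4 of 3D HGF (-0.33). The fatty acid genes SLC27A4 and SLC27A5 gave 0.24 ± 0.11 and -0.51 ± 0.17 in 3D. SLC27A5 passed, but not after quantile normalization (-0.33, adjusted p = 0.0997), median centring (-0.41, adjusted p = 0.0595) or without 3D control replicate 1 (-0.39, adjusted p = 0.0675). Neither passed in 2D.

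**Figure D3:**
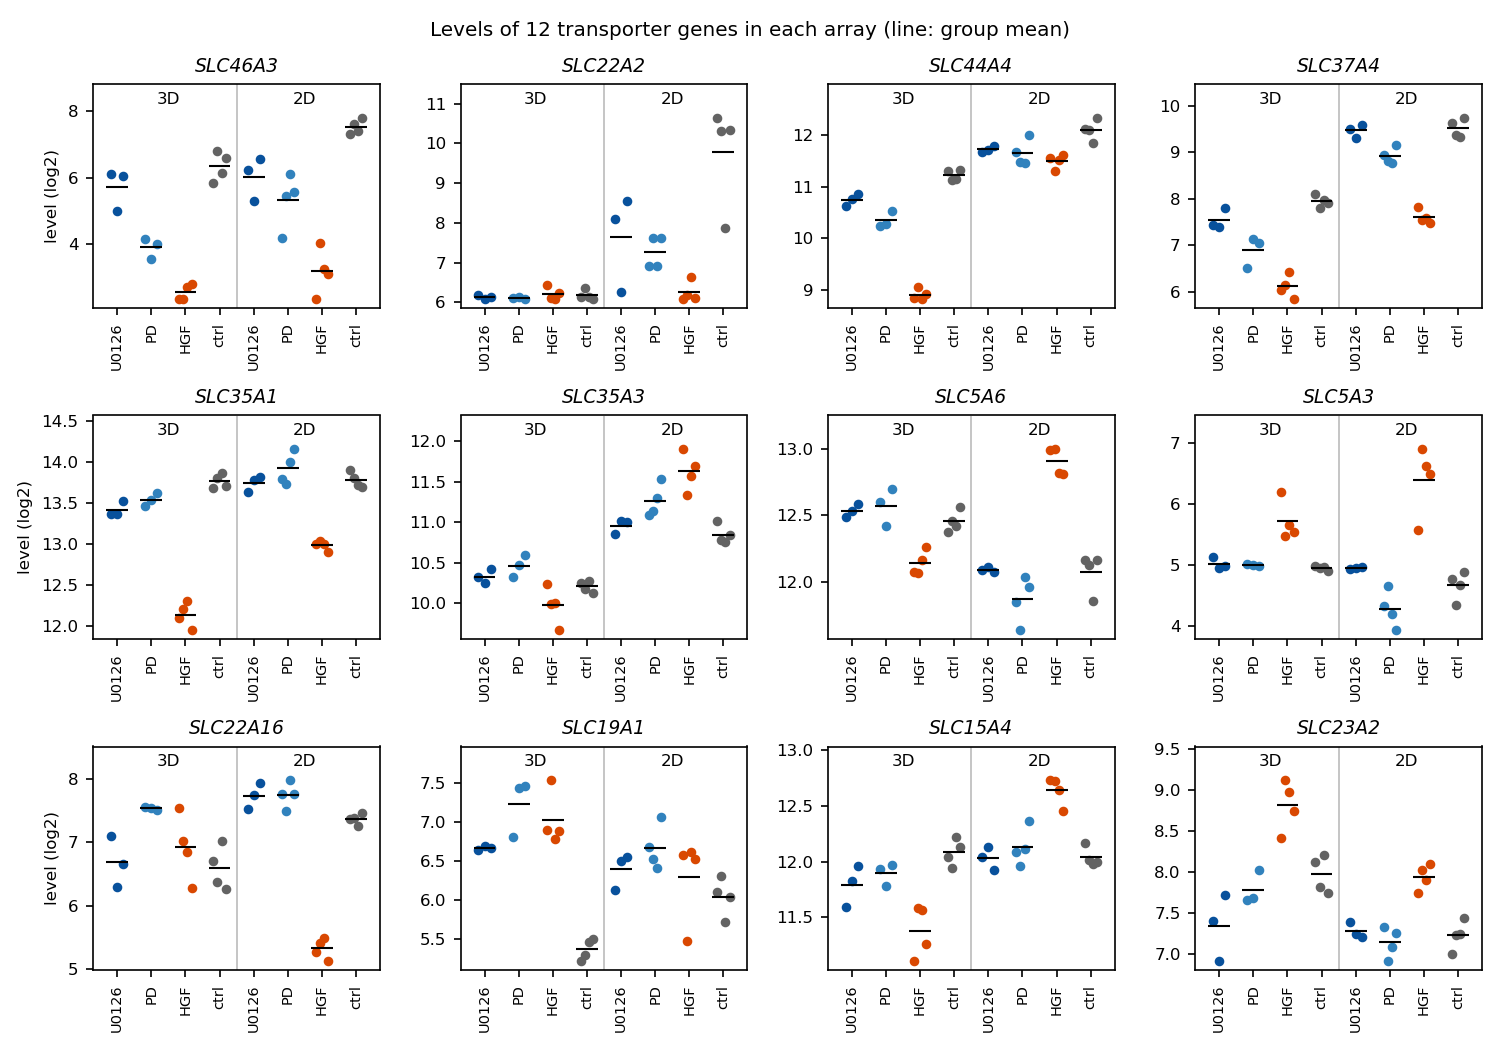
Log2 level (y axis) of 12 transporter genes in each of the 29 arrays (points), by group (x axis: HGF with U0126, HGF with PD-98059, HGF and control, in 3D and then 2D), with the group mean as a line; n is 3 or 4 arrays a group. SLC22A2 is high only in 2D control (7.88 to 10.65) and in part of the 2D inhibitor arrays, and SLC46A3 is lower with HGF than in every other group of the same culture.

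The effect of HGF in collagen was then compared with that in flat culture, by subtracting the second from the first in 1 model term. The difference was positive for 6 of 30 members and negative for 11, so 56.7% passed, against 48.3% of all tested probe sets (22% higher, 26.3% lower), and after quantile normalization the split was 8 and 9. At least 2-fold differences were called for 4 members in each direction (21.4% of all in either). Of these 17, 12 passed under every alternative and with each array left out. The largest positive differences were in SLC22A2 (3.58 ± 0.60, adjusted p = 2.22e-05) and SLC22A16 (2.37 ± 0.28), which fell in 2D alone. That of SLC22A2 rests on 3D arrays already at their low value, where a further fall may not be readable, which was not tested. That of SLC22A16 was 1.09 with the mean of its probe sets. SLC19A1 (1.40 ± 0.31) and SLC10A3 (1.22 ± 0.19) had a larger rise in 3D.

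The negative differences were led by SLC44A4 (-1.71 ± 0.15, adjusted p = 1.25e-09), which fell further in 3D. SLC15A4 (-1.30 ± 0.15), SLC5A6 (-1.14 ± 0.12) and SLC35A3 (-1.01 ± 0.16) were higher with HGF in 2D and not in 3D. SLC5A3 (-0.97 ± 0.28) rose less in 3D, and SLC44A3 (-0.95 ± 0.14) and SLC35A1 (-0.83 ± 0.12) fell further in 3D. The smaller differences of SLC17A5 (0.55 ± 0.21) and SLC29A1 (-0.48 ± 0.19) did not pass when single arrays were left out. For SLC17A5 these were 3D control 1, 3D HGF 1, 3, and 4, 2D control 1 and 2D HGF 2 (0.41, 0.49, 0.53, 0.49, 0.43 and 0.45). For SLC29A1 they were 3D control 1 and 3, 3D HGF 1, 2 and 4, 2D control 3 and 2D HGF 1 and 4 (between -0.37 and -0.47). Without replicates 1 and 4 of 3D HGF the differences of SLC17A5 (0.37), SLC27A4 (0.33), SLC27A5 (-0.60), SLC29A1 (-0.44) and SLC37A1 (-0.67) did not pass (adjusted p = 0.185, 0.122, 0.0816, 0.0965 and 0.0664). For SLC46A3 the difference was 0.56 ± 0.51 (adjusted p = 0.388, 95% interval -0.49 to 1.60). For SLC37A4 it was 0.08 ± 0.20 (95% interval -0.33 to 0.50), although its other probe set fell further in 2D than in 3D, by the values given above.

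The setting of growth without any factor was compared between the 4 arrays of 3D control and the 4 of 2D control. In 3D control 7 of 30 members were higher and 11 lower than in 2D control, 60% of them, against 52.3% of all tested probe sets (23.6% higher, 28.7% lower), and 13 of the 18 passed under every alternative. Of the 18, 2 were at least 2-fold higher and 3 at least 2-fold lower (15.3% of all in either direction). SLC22A2 was 12.2-fold lower in 3D (-3.61 ± 0.42), the change of largest size among the members, and 5.03 lower by its other probe set. SLC37A4 was 2.98-fold lower (-1.57 ± 0.14, adjusted p = 1.19e-09) and SLC46A3 2.28-fold lower (-1.19 ± 0.36). SLC44A4 (-0.87 ± 0.11), SLC19A1 (-0.67 ± 0.22), SLC22A17 (-0.66 ± 0.15) and SLC35A3 (-0.64 ± 0.11) were lower too. SLC22A16 was lower by 0.78 ± 0.20 on the probe set used and higher by 0.70 on its dim second one, and the mean of both gave -0.04, so its direction depends on the probe set.

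SLCO3A1 led the genes that were higher in 3D. Its levels were 5.35, 5.71, 6.30 and 5.81 in 3D control, against 4.47, 3.93, 4.91 and 4.28 in 2D control, which is dim, with no overlap and a difference of 1.40 ± 0.21. SLC37A1 was higher by 1.03 ± 0.19, from 5.74 in 3D control and a dim 4.72 in 2D control, SLC23A2 by 0.75 ± 0.16 and SLC27A5 by 0.68 ± 0.17. SLC35A5 was higher by 0.62 ± 0.23 (adjusted p = 0.0252), which did not pass without 3D control replicate 3 (0.59), 2D control replicate 2 (0.59) or 2D control replicate 4 (0.58), or with the mean of its probe sets (0.06), as the other one gave -0.51. SLC5A6 was higher by 0.38 ± 0.08, and by 0.07 with the mean of its probe sets. SLC35A1 gave -0.017 ± 0.08 (95% interval -0.19 to 0.16), while its other tested probe set was lower in 3D by 0.43 (adjusted p = 0.0124). SLC5A3 gave 0.28 ± 0.20.

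**Figure D4:**
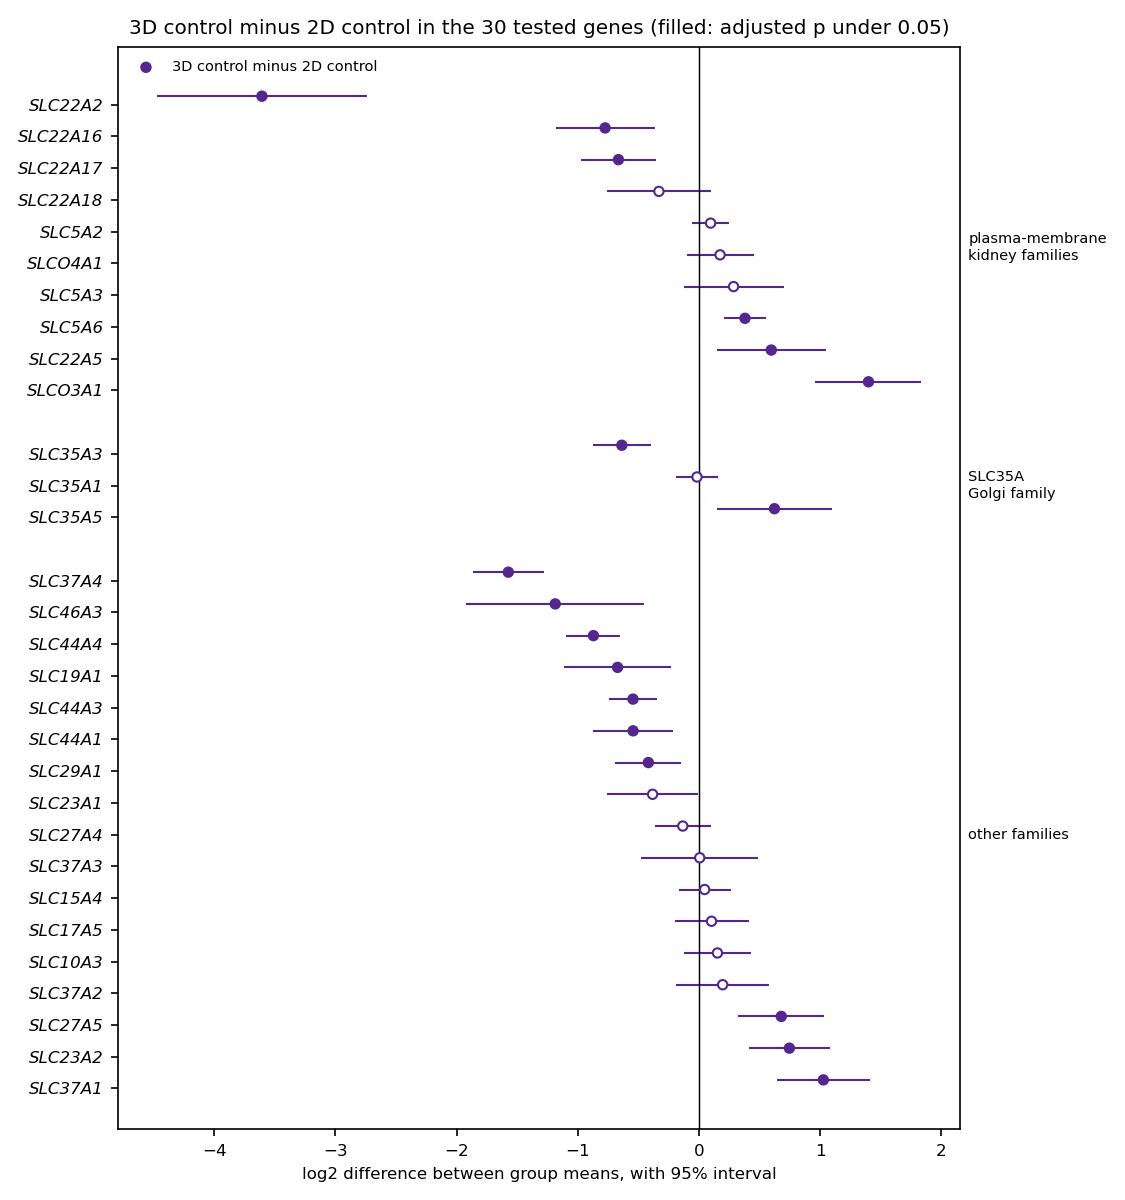
Log2 difference between 3D control and 2D control group means with its 95% interval (x axis, n = 4 arrays a group) for each of the 30 tested genes (y axis, by class); filled points passed at an adjusted p under 0.05. SLC22A2 lies farthest to the left (-3.61) and SLCO3A1 farthest to the right (1.40).

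What MEK inhibition changed in cells given HGF was asked by comparing the inhibitor arrays with the HGF arrays of the same culture. These comparisons share their HGF arrays with those above, so the values stand side by side and no overlap of calls is given. With U0126 in 3D 16 of 30 members rose and 3 fell (49.3% of all probe sets called, 25.4% higher and 23.8% lower), and with PD-98059 in 3D 15 rose and 3 fell (42% of all, 26.6% higher and 15.4% lower). With U0126 in 2D 14 rose and 5 fell (50.1% of all, 25.8% higher and 24.3% lower), and with PD-98059 in 2D 14 rose and 6 fell (52.4% of all, 27.6% higher and 24.9% lower). Under every alternative 11 risen and 2 fallen members kept their calls with U0126 in 3D, 13 and 1 with PD-98059 in 3D, 11 and 5 with U0126 in 2D, and 10 and 5 with PD-98059 in 2D. Of the 10 plasma-membrane kidney genes 4 rose and 1 fell with U0126 in 3D, and 5 and 1 with PD-98059. In 2D 5 rose and 2 fell with each inhibitor.

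SLC46A3 rose in all 4 comparisons. In 3D it had 6.12, 4.99 and 6.06 with U0126 and 4.17, 3.57 and 4.001 with PD-98059, against the 2.37 to 2.81 of HGF alone. In 2D it had 6.22, 5.31 and 6.56 with U0126 and 4.20, 5.46, 6.12 and 5.57 with PD-98059, against 2.37 to 4.05 with HGF alone. No inhibitor array overlapped the HGF arrays, and the PD-98059 arrays in 3D were still dim. The rises in 3D were 3.16 ± 0.39 with U0126 and 1.35 ± 0.39 with PD-98059, and in 2D 2.84 ± 0.39 with U0126 and 2.14 ± 0.36 with PD-98059. The untreated controls lay at 5.83 to 6.81 in 3D and 7.29 to 7.80 in 2D.

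SLC44A4 rose in 3D, with arrays of 10.63, 10.76 and 10.85 with U0126 and 10.24, 10.28 and 10.52 with PD-98059, against 8.83 to 9.05 with HGF alone. The differences were 1.83 ± 0.12 and 1.43 ± 0.12. In 2D SLC44A4 gave 0.22 ± 0.12 with U0126 and 0.16 ± 0.11 with PD-98059 and did not pass. SLC37A4 rose with each inhibitor in each culture, in 3D by 1.43 ± 0.15 with U0126 and 0.78 ± 0.15 with PD-98059, and in 2D by 1.86 ± 0.15 and 1.31 ± 0.14. SLC44A3 and SLC17A5 rose in all 4 comparisons too, SLC17A5 by 1.101 ± 0.16 and 0.81 ± 0.16 in 3D.

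Of the SLC22 genes, SLC22A5 rose by 1.20 ± 0.23 with U0126 and 0.90 ± 0.23 with PD-98059 in 3D, and by 1.52 ± 0.23 and 1.26 ± 0.22 in 2D. SLC22A18 rose by 1.32 ± 0.22 and 1.27 ± 0.22 in 3D (0.82 and 0.83 with the mean of its probe sets) and by 1.58 ± 0.22 and 1.16 ± 0.21 in 2D. SLC22A16 in 2D had 7.52, 7.74 and 7.93 with U0126 and 7.76, 7.49, 7.99 and 7.76 with PD-98059, against 5.13 to 5.49 with HGF alone. These groups do not overlap, and the rises were 2.40 ± 0.21 and 2.43 ± 0.20, or 1.20 for each inhibitor with the mean of both probe sets.

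SLC22A2 in 2D was uneven, with 8.09, 6.25 and 8.56 in the U0126 arrays and 6.92, 7.62, 6.92 and 7.62 in the PD-98059 arrays, against 6.09 to 6.63 with HGF alone. Replicate 2 of U0126 lay among the HGF arrays. The rises were 1.38 ± 0.46 and 1.02 ± 0.42 (adjusted p = 0.0134 and 0.0461), and 2.41 and 2.13 on the other probe set. With U0126 the rise was 1.15 and 0.92 without replicates 1 and 3 (adjusted p = 0.0740 and 0.133) and 2.07 without replicate 2. With PD-98059 it did not pass without HGF replicates 1, 2 or 4 or PD-98059 replicates 2 or 4 (0.96, 0.99, 0.97, 0.90 and 0.90), nor with the replicate block (adjusted p = 0.0575).

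SLC35A1 rose in all 4 comparisons. It had 13.36, 13.37 and 13.53 with U0126 and 13.47, 13.54 and 13.62 with PD-98059 in 3D, against 11.96 to 12.31 with HGF alone, and 13.64, 13.78 and 13.81 with U0126 and 13.79, 13.73, 14.00 and 14.16 with PD-98059 in 2D, against 12.90 to 13.04. The inhibitor arrays are all higher. The rises were 1.28 ± 0.09 and 1.40 ± 0.09 in 3D and 0.75 ± 0.09 and 0.93 ± 0.08 in 2D. SLC35A3 rose in 3D, by 0.35 ± 0.12 with U0126 and 0.48 ± 0.12 with PD-98059, and fell in 2D, by 0.67 ± 0.12 and 0.36 ± 0.11. Its U0126 value in 3D (adjusted p = 0.0208) did not pass in 5 of 18 alternatives, with an adjusted p of up to 0.0986, and its fall with PD-98059 in 2D did not pass without 2D HGF replicate 1 (-0.27, adjusted p = 0.0595).

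Fewer genes fell than rose with each inhibitor. SLC23A2 fell in all 4 comparisons, by 1.47 ± 0.17 with U0126 and 1.03 ± 0.17 with PD-98059 in 3D, and by 0.66 ± 0.17 and 0.80 ± 0.16 in 2D. SLC5A3 in 2D had 4.94, 4.95 and 4.97 with U0126 and 4.34, 4.66, 4.20 and 3.94 with PD-98059, against 5.58 to 6.92 with HGF alone, and fell by 1.45 ± 0.22 and 2.12 ± 0.20 to dim levels. In 3D it fell by 0.70 ± 0.22 and 0.71 ± 0.22, and without replicates 1 and 4 of 3D HGF by 0.55 and 0.56, which did not pass (adjusted p = 0.0694 and 0.0764). The rises of SLC23A1 and SLC35A5 with U0126 in 3D did not pass without those arrays either (0.41 and 0.58, adjusted p = 0.156 and 0.0533). In all, the SLC23A1 rise was lost in 9 of 17 alternatives and the SLC35A5 rise in 7 of 18. SLC23A1 was dim in 3D HGF, at 4.62 or less on every array. SLC5A6 fell in 2D, by 0.82 ± 0.09 with U0126 and 1.04 ± 0.08 with PD-98059, and rose in 3D, by 0.39 ± 0.09 and 0.43 ± 0.09. SLC15A4 fell in 2D by 0.61 with U0126 and 0.51 with PD-98059, and rose in 3D by 0.41 and 0.51. The rise of SLC15A4 with U0126 in 3D did not pass with array weights (0.20, adjusted p = 0.122), with the compared groups alone (adjusted p = 0.0715) or without replicates 1 and 4 of 3D HGF (0.22, adjusted p = 0.125). SLC10A3 in 3D fell by 1.11 ± 0.15 with U0126. SLC23A1 rose by 1.65 ± 0.20 in 2D with U0126, to 5.96, against a dim 4.31 with HGF alone. SLC19A1 passed with neither inhibitor in 3D, at -0.36 with U0126 and 0.21 with PD-98059 (limma adjusted p = 0.214 and 0.515). In 2D it gave 0.096 and 0.37 and did not pass either. SLC29A1 fell by 0.43 with PD-98059 in 2D, where the arrays overlapped. With U0126 in 2D it gave -0.27, and in 3D -0.033 with U0126 and -0.088 with PD-98059, and did not pass.

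**Figure D5:**
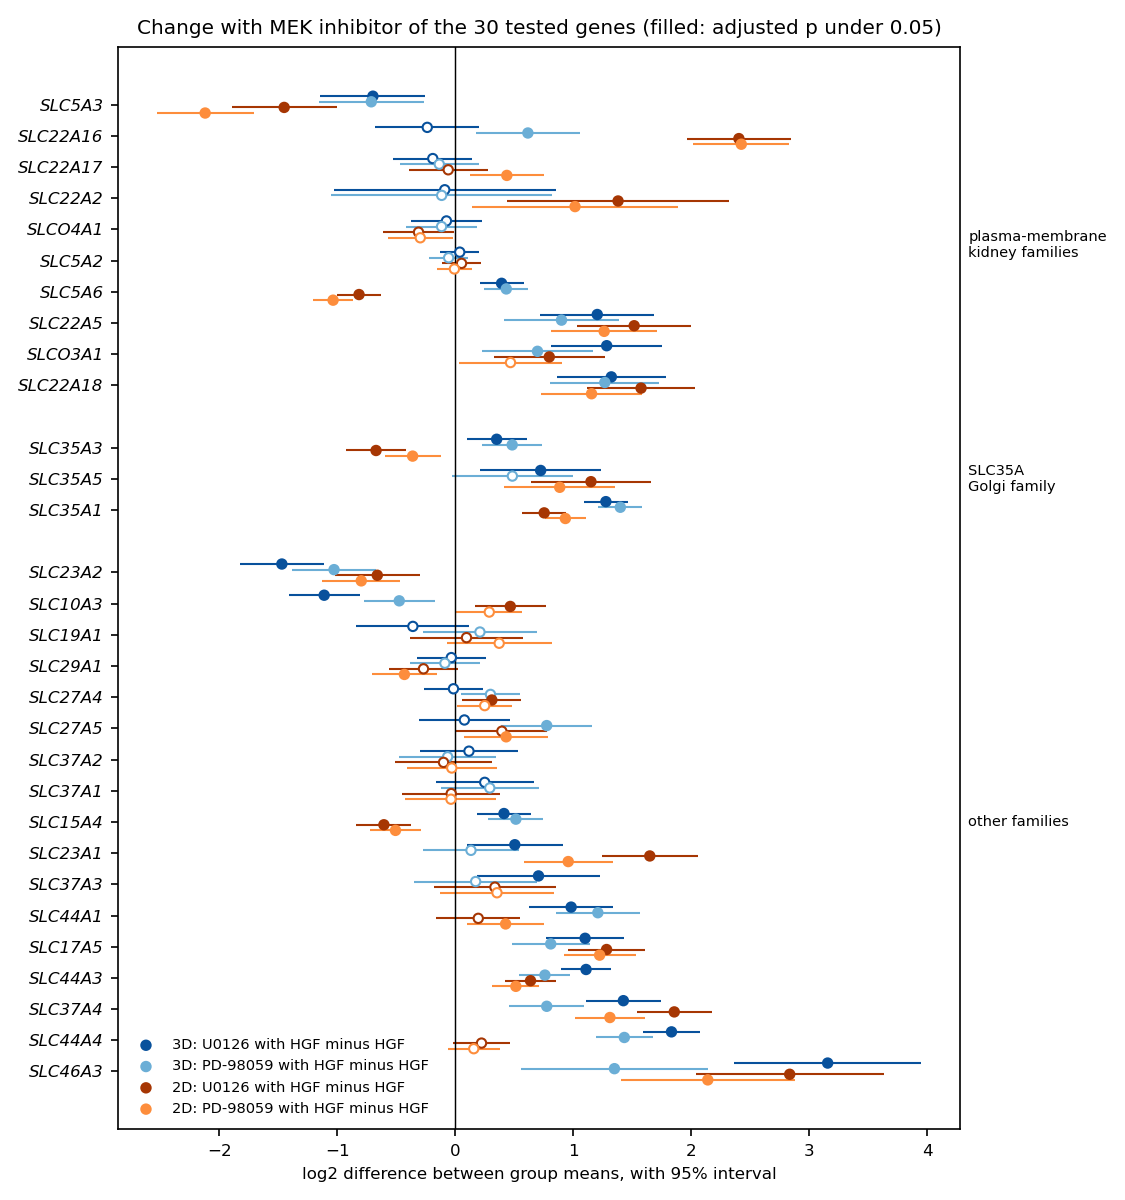
Log2 difference between the means of arrays with an inhibitor and HGF and of arrays with HGF alone, with its 95% interval (x axis), for each of the 30 tested genes (y axis, by class), for U0126 and PD-98059 in 3D and in 2D (n = 3 or 4 arrays a group); filled points passed at an adjusted p under 0.05. SLC46A3 rose in all 4 comparisons, and SLC5A6, SLC35A3 and SLC15A4 lie to the right in 3D and to the left in 2D.

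U0126 and PD-98059, which differ in chemical structure, were set against each other once in each culture, at doses and times that are not given. In 3D 4 members were higher with U0126 and 3 lower (11.8% of all tested probe sets called, 2.99% higher and 8.82% lower), 1 of them at least 2-fold (1.33% of all), and in 2D 0 of 30 passed by limma (1.62% of all), with 6 at an unadjusted p under 0.05 and a lowest adjusted p of 0.0744. SLC46A3 was 3.501-fold higher with U0126 in 3D (1.81 ± 0.41, adjusted p = 0.00469), where the PD-98059 arrays are dim, and it alone passed in every alternative. In 2D the same difference was 0.69 ± 0.39 (95% interval -0.10 to 1.49). SLC37A4 was higher by 0.65 ± 0.17 in 3D but did not pass without PD-98059 replicate 1 (0.46) or U0126 replicate 3 (0.52), or with the mean of its probe sets (0.43). SLC22A16 was lower by 0.85 ± 0.23 and SLC27A5 by 0.70 ± 0.20 with U0126. SLC22A16 did not pass without PD-98059 replicate 3 (-0.86) or U0126 replicate 2 (-0.66), nor SLC27A5 without PD-98059 replicates 2 or 3 (-0.58 and -0.72) or U0126 replicates 1 or 3 (-0.67 and -0.65). SLC35A1 differed by -0.12 ± 0.10 in 3D (95% interval -0.32 to 0.08) and by -0.18 ± 0.09 in 2D (-0.37 to 0.01).

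Over all 8 groups the plasma-membrane kidney genes and the SLC35A genes were set side by side by the range of their group means, as a description with no test. The range had a median of 2.08 on the log2 scale over 10 plasma-membrane genes, from 0.15 in SLC5A2 to 3.68 in SLC22A2. Over 3 SLC35A genes it was 1.78, from 1.65 to 1.96, over 17 others 1.65 and over 7 genes of SLC35 B to G 1.34. All tested probe sets had a median range of 1.14, and the 30 members of 1.69. With each gene centred on its mean over groups, the median of the plasma-membrane genes was lowest in 2D HGF (-0.34) and lay between -0.11 and 0.08 in the other 7 groups. The median of the SLC35A genes was lowest in 3D HGF (-0.73) and next lowest in 2D HGF (-0.42), and was 0.01 to 0.51 elsewhere. With 3 genes this median is the value of SLC35A3 in 3D HGF and of SLC35A1 in 2D HGF. SLC35A3 was already at -0.50 in 3D control. The 3 genes ran from -1.27 to 0.03 in 3D HGF and from -1.21 to 0.92 in 2D HGF, so the median does not describe the family.

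A list of 13 genes that organise or drive transport at the tubule cell membrane, of which 10 were on the array and 7 were tested, gave 0 risen and 5 fallen genes with HGF in 3D (32.6% of all probe sets were lower), and 0 and 6 in 2D (29.2% lower). The list was chosen with earlier results of these data known, so its direction is no independent evidence. Their medians were -0.91 and -0.99. With U0126 5 rose and 0 fell in each culture, against 25.4% of all probe sets higher in 3D and 25.8% in 2D. With PD-98059 4 rose in 3D and 6 in 2D, and 0 fell, against 26.6% and 27.6% of all higher. PDZK1IP1, a partner of the apical scaffold PDZK1, fell by 3.04 in 3D and 1.05 in 2D with HGF. The kidney transcription factor HNF4G fell by 1.43 and 2.24. ATP1B1, the beta subunit of the sodium pump whose gradient drives the SLC5 carriers, fell by 0.69 and 0.99.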

How the data were processed

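The authors deposited log2 levels per probe set for 29 arrays, made from total RNA isolated with a Qiagen kit, transcribed in vitro and labelled with biotin, per the labels' protocols. MAS5, Affymetrix Expression Console 1.1, GCRMA and Partek 6.6 are named in the submitters' processing notes, without their roles. These deposited log2 values were used without further scaling. Of 42924 probe sets that are not controls, the 16571 at log2 5 or more in at least 3 arrays were tested. Gene symbols come from the platform annotation. For 89 of the 95 members the gene identifier is in the RefSeq table with the same symbol.

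Group means over 8 groups and all 29 arrays were fitted with limma 3.58.1 in R 4.3.3 (lmFit, eBayes with trend). Tests are two-sided and adjusted by Benjamini-Hochberg over 16571 probe sets within each of 10 comparisons. Values are log2 differences ± standard error, from a spread per probe set pooled over all 8 groups. The model was tested on simulated data.

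Members and lists were chosen with earlier results of these data known. Genes named are those that passed without overlap between groups, up to 8 in each direction for HGF and culture, 5 for the difference (where no overlap rule was used), 4 for an inhibitor and 2 between inhibitors, with a set always given. Others are named where a count or family turned on them, after their values were seen. Of 11 members with several tested probe sets, 8 had the same call on all of them for HGF in 3D and 7 in 2D. Replicate numbers of the titles are not shown to pair arrays. Deviations from the group mean correlated over 0.1 in at most 2 of the 3 or 4 pairs of a comparison. The correlations ran from -0.30 to 0.41, and so few pairs cannot exclude a pairing. Alternatives were 2 filters, 2 scalings, array weights, eBayes without trend, the compared groups alone, the mean of probe sets, a replicate block, an RNA-quality covariate, each array left out, and replicates 1 and 4 of 3D HGF left out together, which was added after the data were seen.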

Additional observations from a re-analysis of the deposited data

Results flagged for a closer look

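Within groups of 4 arrays, 15 of 150 pairs of gene and group had 1 array far from the other 3, where chance gives about 1 in 20. SLC19A1 stood apart in 2D HGF replicate 2 at 5.48 and in 3D HGF replicate 2 at 7.55. SLC22A2 did so in 2D control replicate 3 at 7.88 and in 3D control replicate 2 at 6.37. In 3D HGF the others were SLC23A1 in replicate 4 at 4.16, SLC27A4 in replicate 4 at 6.50, SLC37A1 in replicate 3 at 5.85 and SLC37A2 in replicate 1 at 6.84. In 2D HGF they were SLC37A2 in replicate 3 at 6.999 and SLC5A2 in replicate 2 at 6.56. In control arrays they were SLC27A4 in 3D replicate 3 at 5.71, SLCO4A1 in 3D replicate 4 at 5.89 and in 2D replicate 1 at 5.28, SLC5A2 in 2D replicate 1 at 6.40 and SLC5A6 in 2D replicate 3 at 11.86. Several of these genes have many arrays at nearly 1 level, where a small step stands out.

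The effect of HGF differed between 3D and 2D by limma's test of the difference for 17 members. It was more positive in 3D for SLC22A2 (3.58), SLC22A16 (2.37), SLC19A1 (1.40), SLC10A3 (1.22), SLC17A5 (0.55) and SLC27A4 (0.40). It was more negative in 3D for SLC44A4 (-1.71), SLC15A4 (-1.30), SLC5A6 (-1.14), SLC35A3 (-1.01), SLC5A3 (-0.97), SLC44A3 (-0.95), SLC35A1 (-0.83), SLC37A1 (-0.82), SLC44A1 (-0.75), SLC27A5 (-0.60) and SLC29A1 (-0.48). Of these 17, 5 lost the call in some alternatives: SLC27A5 in 21 of 27, SLC29A1 in 14, SLC17A5 and SLC27A4 in 10 each, and SLC37A1 in 2 of 26.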

How the results depend on the processing

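The count of members called between U0126 and PD-98059 in 3D was 7, and became 13 with array weights, 3 with the compared groups alone and 4 to 5 with 1 array left out. In 2D it was 0, and became 1 after quantile normalization, median centring or array weights and 0 to 1 with 1 array left out. The cause was not tested. The counts of the other 8 comparisons stayed within 1.5 times, although with no filter on low values the split for HGF in 3D was 12 risen and 14 fallen of 95, against 4 and 14 of 30. With the replicate block the calls were 4 risen and 14 fallen for HGF in 3D, 6 and 12 in 2D, and 6 and 10 for the difference. The numbers are not shown to pair arrays.

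Changes of sign were all in values that did not pass. SLC22A2 with HGF in 3D gave -0.051 with array weights, -0.15 with the mean of probe sets, -0.085 without 3D HGF replicates 1 and 4, and -0.038 to 0.0995 with 1 array left out. SLC22A2 with those 3 settings gave 0.019, 0.18 and 0.033 for U0126 in 3D, and for PD-98059 0.27 and 0.0066 with the last 2. Between inhibitors SLC22A2 gave -0.032 after quantile normalization and -0.087 with the mean of probe sets in 3D, and -0.097 to 1.06 with 1 array left out in 2D. SLC35A1 between controls gave 0.047 after median centring and -0.049 to 0.022 with 1 array left out. SLC29A1 with 1 array left out gave -0.0011 to 0.22 for HGF in 2D, -0.089 to 0.036 for U0126 in 3D and -0.0014 to 0.086 between inhibitors in 3D, and SLC19A1 gave -0.18 to 0.23 for U0126 in 2D. Between inhibitors in 3D, quantile normalization gave -0.0082 for SLC29A1, 0.035 for SLC35A1, -0.056 for SLC5A3 and 0.11 for SLC5A6. SLC5A6 gave 0.0028 after median centring, 0.26 with the mean of probe sets and -0.12 to 0.023 with 1 array left out, and SLC5A3 -0.040 to 0.051. The number of arrays and signals near background limit the precision.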
